A study of Mus musculus with 16 samples.

Results

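The potassium channel genes of the mouse were followed in lumbar spinal cord of SOD1G93A mice, a model of Amyotrophic Lateral Sclerosis, at 2 ages before overt disease. Members were all array probes whose gene name begins with Kcn followed by a subfamily letter and number, or that name a Kcnab, Kcnip or Kcnmb subunit. This gave 83 gene names on 122 probes and 140 spots, of 27962 names and 41174 probes on the array, and 33 of the genes had several probes. One of the names, Kcnq1ot1, is a noncoding RNA antisense to Kcnq1 and not a channel. Measured groups were non-transgenic wild-type mice of 40 days, SOD1G93A mice of 40 days, wild-type mice of 80 days and SOD1G93A mice of 80 days, with 4 arrays each. All mice were males of B6SJL background, and SOD1G93A is the mutant human superoxide dismutase transgene carried by the affected animals only. Total RNA of the whole lumbar cord was labeled with Cy3 and hybridized beside one Cy5-labeled pool of neonatal heart, kidney and liver, made from non-transgenic and SOD1G93A animals together. The methods give 5 animals per group, of which arrays of low quality were set aside. The labels call the samples biological replicates.

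Potassium channels let potassium leave the cell, which ends the action potential, sets the resting potential and limits how fast a neuron fires. Voltage-gated (Kv) pores are tetramers, built mostly from subunits of the same subfamily, although modifier subunits form channels only together with other Kv subunits. Auxiliary proteins alter their gating and trafficking. Inward rectifiers and two-pore-domain channels hold the resting potential, and in astrocytes they carry the uptake of potassium that active neurons release. Changes in motor neuron excitability are a known feature of the SOD1G93A model.

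Each value below is the log2 ratio of Cy3 (cord) to Cy5 (pool), so 1 stands for 2-fold more signal in the cord, and a change is a difference between group means of these ratios. Between 46.1% and 55.3% of probes were well above background in Cy3 and between 57.1% and 70.0% in Cy5. Dyes were not swapped, so the ratio to the pool also holds any difference between the dyes. On 3 arrays (wild-type 40 days replicate 3, SOD1G93A 40 days replicate 4 and SOD1G93A 80 days replicate 4) a few local backgrounds lay far above their own spots and were reset before correction. Replicate numbers mark the slide, and each slide held 1 array of every group, each group at its own position, so that position and group cannot be told apart. Neuron markers such as Snap25 (7.58 above the pool in wild-type) were high in the cord. Of 6 listed motor neuron markers 5 were detected, with wild-type ratios from 0.43 (Isl1) to 3.25 (Slc5a7). Only the probe for Chat, the acetylcholine-synthesizing enzyme of motor neurons, was never well above background. Markers of Schwann cells, which lie in nerve roots, differed widely between arrays of 1 group, from -0.88 to 2.57 on average among the 4 wild-type arrays of 40 days. Fewer cells of a type and less RNA per cell cannot be told apart in this tissue.

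Probe sequences show what each signal stands for, and 5 probes that bear on the results below are given as deposited, with positions on the mm7 (NCBI35) mouse build. The Kcnd2 probe (chr6:21662299-21663298, plus strand), the Kcnc1 probe (chr7:42603598-42603657, plus strand) and the Kcnh2 probe (chr5:23361863-23362135, minus strand) carried calls: the first pair between the genotypes at 40 days and the last with age in SOD1G93A cord. The probes for Kcnip3 (chr2:127199214-127200214, minus strand) and Kcnip4 (chr5:47716800-47721907, minus strand) are shown because they cover the same stretch of 2 related calcium sensors. With the Kcnip4 probe shifted by 7 bases and no gaps, 40 of 53 aligned bases (75.5%) were identical, and these are in capitals. Positions that span more than the 60 bases of a probe mean that it crosses an exon boundary.
Kcnd2: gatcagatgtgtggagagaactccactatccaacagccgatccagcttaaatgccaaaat
Kcnc1: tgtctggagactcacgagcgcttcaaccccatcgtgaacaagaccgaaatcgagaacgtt
Kcnh2: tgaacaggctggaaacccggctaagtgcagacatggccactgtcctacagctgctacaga
Kcnip3: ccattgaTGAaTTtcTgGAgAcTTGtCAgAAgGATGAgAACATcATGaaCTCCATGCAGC
Kcnip4: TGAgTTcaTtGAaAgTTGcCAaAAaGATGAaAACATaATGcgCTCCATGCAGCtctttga

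In wild-type cord the potassium channel genes stood above the pool in a larger share of probes than the array as a whole. Of the 122 member probes, 73 (59.8%) were well above background on at least 3 of 4 arrays of a wild-type group, against 52.3% of all probes. Among these 73, 36 (49.3%) were more than 2-fold above the pool, against 16.1% of all probes, and 7 (9.59%) were more than 2-fold below it, against 11.2%. The shares above the pool moved with the processing, to 76.7% of members and 25.9% of all probes with the scanner's processed signals and to 35.6% and 7.13% with median centering. For 6 of the 73 (8.22%) the pool gave no signal well above background on any wild-type array, against 1.49% of all probes. For these only a lower bound holds, and it can lie below the printed ratio. The bound sets the pool to no less than the lowest Cy5 signal well above background on each array. Another 28 member probes were never well above background in Cy3 on any of the 16 arrays, and 58 were so on all of them. These ratios describe cord against pool and carry no test.

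Among the Kv pores, Kcna1 (Kv1.1, found beside the nodes of myelinated axons) had the highest ratio of all members, 5.67 ± 0.16 (SD, 8 wild-type arrays). Kcna6, another Kv1 pore, stood at 4.02 ± 0.37, with the pool never above background, which makes it at least 14.7-fold higher in the cord. Kcna2, which forms channels with Kcna1 in axons, gave 0.83 ± 0.09. Kcna7, a Kv1 pore known from muscle and heart, was the least steady member: its 16 values ran from -2.22 to -0.01 with an SD of 0.71, and its wild-type arrays of 40 days alone read -0.24, -0.46, -2.22 and -1.79. Its group means lay between -1.22 and -0.81.

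The Kv3 pores, which let neurons fire at high rates, were high throughout, with 6 of 7 detected probes more than 2-fold above the pool. Kcnc2 reached 2.14 ± 0.13 and Kcnc4 2.33 ± 0.24. For Kcnc1 (Kv3.1) the 3 detected probes disagreed, at 2.78 ± 0.12, 5.19 ± 0.17 and 0.61 ± 0.11. For the last 2 the pool was not above background, so only bounds of at least 29.8-fold and at least 1.53-fold hold. Kcnd2 (Kv4.2, an A-type channel of dendrites) had 3.59 ± 0.23 on its brightest probe and 2.65 ± 0.13 on the other. Kcnd1 and Kcnd3, the other Kv4 pores, and the modifier subunit Kcns1 were well above background on 1, 1 and 3 of 16 arrays and were not tested.

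Among the Kv7 pores, Kcnq3, part of the M-current that damps firing, was well above background on 2 of 16 arrays and not tested, and Kcnq1 (Kv7.1, the channel of heart and epithelia) stood at -2.46 ± 0.11. Kcnh2 (ERG1) was closer to the pool at 0.67 ± 0.21. Among channels gated by calcium or sodium, Kcnt1 (the sodium-activated Slack channel) was among the highest at 4.34 ± 0.17, and Kcnn2 (SK2, a channel of the afterhyperpolarization) had 1.75 ± 0.20.

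Inward rectifiers covered almost the whole range. Kcnj10 (Kir4.1, the main potassium uptake channel of glia) stood at 4.99 ± 0.18 and its partner Kcnj16 (Kir5.1) at 1.58 ± 0.10, while Kcnj9 (Kir3.3, opened by G proteins) had 2.98 ± 0.15 and Kcnj3 (Kir3.1) 1.49 ± 0.11. At the low end, Kcnj8 (Kir6.1, the ATP-sensitive pore of vessels) read -2.10 ± 0.26. Of the two-pore-domain channels, Kcnk1 (TWIK1) read 1.77 ± 0.11, Kcnk6 (TWIK2) -1.24 ± 0.20, and Kcnk2 (TREK1) was well above background on 3 of 16 arrays and not tested.

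Auxiliary subunits were split in the same way. Kcnab1, Kcnab2 and Kcnab3, the cytoplasmic Kv beta subunits of Kv1 channels, stood at 4.29 ± 0.20, 4.00 ± 0.14 and 3.61 ± 0.11. Kcnip4, a calcium sensor that binds Kv4 pores, had 2.97 ± 0.13 on its brightest probe and 0.89 ± 0.15 on the one printed above, a bound of at least 1.85-fold. Kcnmb4, the neuronal beta subunit of the BK channel, read 1.93 ± 0.18. Kcne1 and Kcne2, single-pass subunits of heart and epithelial channels, were the lowest members at -3.79 ± 0.19 and -3.40 ± 0.08. Ranges of 1 SD overlapped between neighbors such as Kcnt1 and Kcnab1 or Kcna6 and Kcnab2, and ratios of different probes give no order of transcript amounts.

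At 40 days, SOD1G93A differed little from wild-type in the potassium channel genes: at an unadjusted p under 0.05, Kcnd2 and Kcnc1 rose, and Kcnj16, Kcnmb4 and Kcnmb2 fell, with changes from 0.12 in size (Kcnmb2) to 0.26 (Kcnmb4). These are 5 of 72 tested member probes (6.94%), against 4.47% of all 21338 tested probes, 2 of them higher (2.44% of all probes) and 3 lower (2.03%). No probe passed after Benjamini-Hochberg adjustment, of members or of the array (0%). The median change of members was 0.02 with 42 above and 30 below 0, against 0.00 over all probes with 10986 above and 10352 below. For 69 of the 72 the 95% interval lay within 1.5-fold in either direction. Among genes with several tested probes, all probes had the same sign in 11 of 14 genes at this age. In the comparisons below this held for 7 of 15 genes at 80 days, 12 of 15 for the difference between the ages, 9 of 15 for age in wild-type and 8 of 14 for age in SOD1G93A.

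Kcnd2, the dendritic A-type pore, gave the clearest separation at this age. Its printed probe read 2.59, 2.54, 2.52 and 2.68 on the wild-type arrays and 2.82, 2.74, 2.79 and 2.83 on the SOD1G93A arrays (replicates 1 to 4). Every SOD1G93A value lay above every wild-type value, as it did within all 4 slides. The change was 0.21 (SE 0.06, 1.16-fold, unadjusted p = 0.00308 by limma, adjusted p = 0.998), with an exact permutation p of 0.0286, the smallest that 4 against 4 arrays allow. The brighter Kcnd2 probe gave 0.10 ± 0.09 (SE, as for every change below), with values of 3.34 to 3.69 in wild-type and 3.43 to 3.70 in SOD1G93A that overlapped. The called probe did not pass without the reset of bright backgrounds, at 0.15, or with median centering in place of loess, at 0.10. Groups did not overlap for 2 of 71 members measured on all arrays (2.82%), Kcnd2 and Kcnmb2, against 2.83% of all probes.

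The printed Kcnc1 probe (Kv3.1) read 2.77, 2.67, 2.59 and 2.85 in wild-type and 2.83, 2.87, 2.91 and 2.87 in SOD1G93A. Wild-type replicate 4 lay among the SOD1G93A values, and the SOD1G93A arrays were close together. The change was 0.15 (SE 0.06, p = 0.0419 by limma, exact permutation p = 0.0571). It was higher on all 4 slides, but with slide as a block p was 0.0696. Leaving out wild-type replicate 2 or 3 or any of the SOD1G93A replicates gave p between 0.0503 and 0.117, and changes between 0.11 and 0.16. The other Kcnc1 probes gave 0.13 ± 0.14 and 0.07 ± 0.08, Kcnc4 0.13 ± 0.12 and the brightest Kcnc2 probe -0.03 ± 0.08. In all, 5 of the 7 Kv3 probes lay above 0, with a median of 0.13. Neuron markers lay above 0 on 15 of 16 probes with none called. Summed over the brightest probe of each of 7 genes, Cy3 signals were 17.52 to 17.77 (log2) in wild-type and 17.47 to 17.72 in SOD1G93A. The mean log2 ratio of these brightest probes was 4.98 to 5.26 in wild-type and 5.24 to 5.32 in SOD1G93A. The part of the neuron markers in the Kcnd2 and Kcnc1 values was not tested.

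Kcnj16, the partner of Kir4.1, was called on 1 of its 3 probes. That probe read 0.77, 0.89, 0.74 and 1.04 in wild-type and 0.79, 0.63, 0.57 and 0.69 in SOD1G93A, with SOD1G93A replicate 1 inside the wild-type range. It fell by 0.19 (SE 0.08, p = 0.0358 by limma, exact permutation p = 0.0857). Leaving out wild-type replicate 2 or 4 or SOD1G93A replicate 2, 3 or 4 gave p between 0.054 and 0.0994, and median centering moved the change to -0.02. The brightest Kcnj16 probe gave -0.10 ± 0.07 and the third -0.06 ± 0.08, while Kcnj10 gave 0.14 ± 0.08. Astrocyte markers lay above 0 at this age on 11 of 11 probes, 3 of them called. Summed over the brightest probe of each of 6 genes, Cy3 signals were 13.65 to 14.00 (log2) in wild-type and 13.95 to 14.26 in SOD1G93A. The part of the astrocyte markers in the Kcnj values was not tested.

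Both detected BK beta subunits fell at 40 days. Kcnmb4 read 1.99, 2.13, 2.06 and 1.73 in wild-type and 1.74, 1.52, 1.60 and 2.00 in SOD1G93A, which overlap through replicate 4 of either group. It fell by 0.26 (SE 0.12, p = 0.0467 by limma, exact permutation p = 0.143), was lower on 3 of 4 slides, and gave p = 0.0996 with slide as a block. Without replicate 1, 2 or 3 of either group p was between 0.07 and 0.133, and changes were between -0.27 and -0.20. Kcnmb2, whose product inactivates BK channels, read 0.18, 0.30, 0.20 and 0.20 in wild-type and 0.14, 0.03, 0.11 and 0.12 in SOD1G93A, close to background, with no overlap. Kcnmb2 was not well above background on every array compared here, so a strict filter left it out and its test lends little support. It fell by 0.12 (SE 0.05, p = 0.0469 by limma, exact permutation p = 0.0286), with p = 0.0966 with slide as a block and between 0.0514 and 0.131 when any of the 8 arrays was left out. The BK pore itself, Kcnma1, had a change of 0.00 and did not pass.

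Other named members did not pass at 40 days. Kcna1 gave 0.08 ± 0.08, Kcna2 0.08 ± 0.07, Kcnab1 -0.07 ± 0.10 and Kcnab2 0.10 ± 0.08. Kcnip4 gave 0.04 ± 0.10, Kcnh2 0.03 ± 0.10, Kcnn2 0.01 ± 0.12 and Kcnt1 0.07 ± 0.09. Kcnj3 gave 0.00 ± 0.07 and Kcnk1 -0.09 ± 0.08. The printed Kcnip3 and Kcnip4 probes, alike in sequence, gave 0.10 ± 0.09 and -0.15 ± 0.08. The widest change of any member was that of Kcnh8, -0.33 ± 0.15, a pore of the ELK family. Of 22 tested probes for partner proteins outside the rule, such as Dpp6 and Dpp10, the Kv4 auxiliary subunits, and Cntnap2, which clusters Kv1 channels beside the nodes, 0 passed in either direction, with a median of 0.01.

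**Figure D1:**
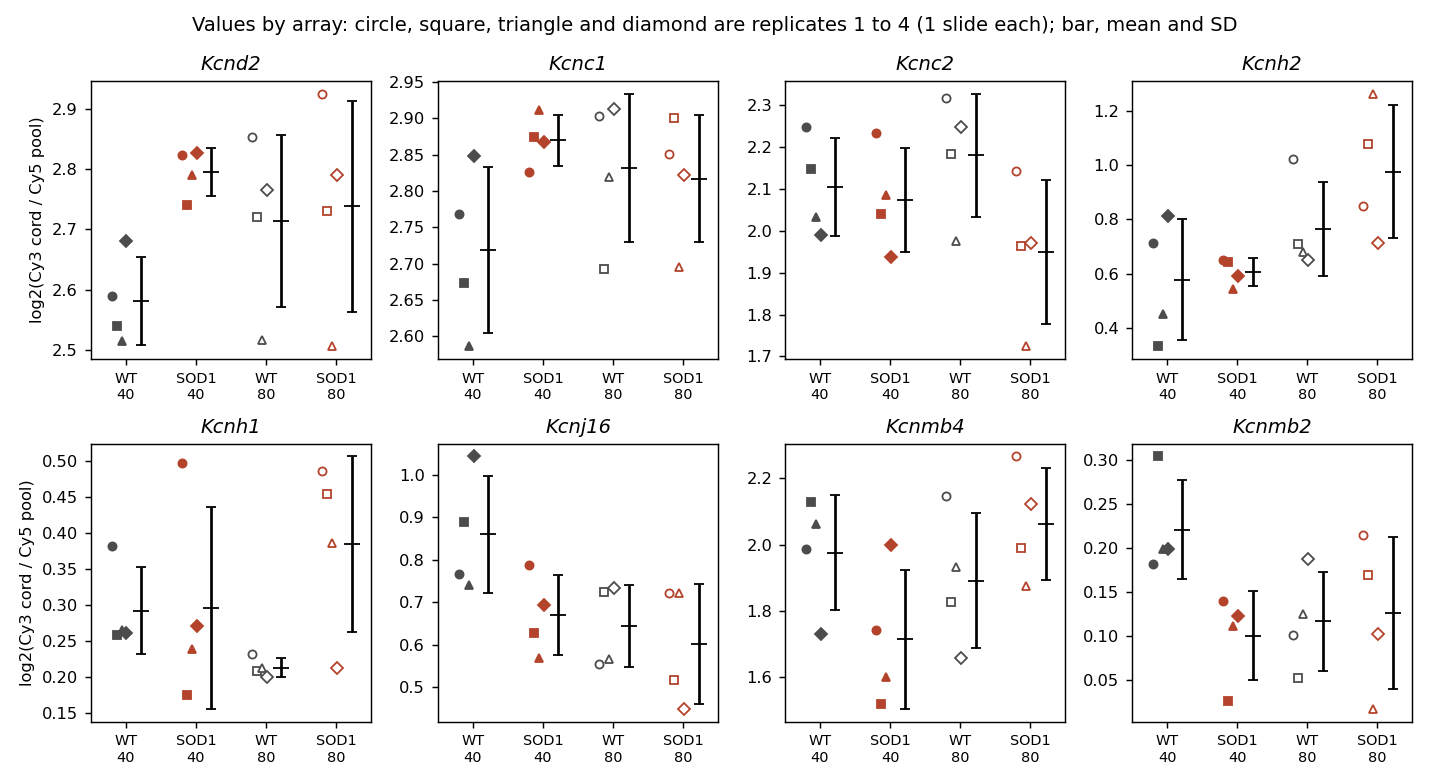
Log2 ratio of cord to pool (y axis) on each of the 16 arrays for 8 called probes, by genotype and age (x axis; WT, wild-type; SOD1, SOD1G93A), with bars for the mean and SD of 4 arrays. Kcnd2 and Kcnmb2 separate the genotypes at 40 days, and Kcnmb4 is lower in SOD1G93A at 40 days and not at 80 days.

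At 80 days the members gave fewer calls than the array: Kcnh1 rose and Kcnc2 fell, 2 of 73 probes (2.74%) against 6.86% of all 21603 tested probes. The 1 higher probe compares with 3.74% of all probes and the 1 lower with 3.12%. After adjustment 0% of all probes passed, and for 0 of 73 members did the groups stand apart, against 4.31% of all probes. The median member change was -0.01, with 33 probes above and 40 below 0, against 0.00 over all probes with 10691 above and 10912 below. For 71 of the 73 the 95% interval lay within 1.5-fold.

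Kcnc2 (Kv3.2) was the lower member. Its called probe read 2.32, 2.18, 1.98 and 2.25 in wild-type and 2.14, 1.96, 1.72 and 1.97 in SOD1G93A. SOD1G93A was lower on each of the 4 slides, and the groups overlapped, with SOD1G93A replicate 1 above wild-type replicate 3. It fell by 0.23 (SE 0.10, 1.17-fold, p = 0.0447 by limma, exact permutation p = 0.0571), and with slide as a block p was 0.00572. Without wild-type replicate 1, 2 or 4 or SOD1G93A replicate 2, 3 or 4 p was between 0.0648 and 0.13, with -0.15 as the smallest change. The second Kcnc2 probe gave -0.18 ± 0.10. From Cy3 alone, and in the series matrix of the authors, the change was -0.10 and did not pass. All 7 Kv3 probes lay below 0 at 80 days, with a median of -0.02. Kcnc1 gave -0.02 ± 0.07 and Kcnc4 -0.01 ± 0.11. Neuron markers lay below 0 on 10 of 16 probes with 1 called. Summed over the brightest probe of each of 7 genes, Cy3 signals were 17.22 to 17.66 in wild-type and 17.47 to 17.68 in SOD1G93A. The mean log2 ratio of these brightest probes was 5.18 to 5.42 in wild-type and 5.09 to 5.28 in SOD1G93A. The part of the neuron markers in the Kcnc2 value was not tested.

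Kcnh1 (EAG1) was called on its dimmer probe, well above background on 12 of 16 arrays. Not every array compared at 80 days was among these, so a strict filter left the probe out and its test lends little support. It read 0.23, 0.21, 0.21 and 0.20 in wild-type and 0.49, 0.45, 0.39 and 0.21 in SOD1G93A, where replicate 4 lay within the wild-type range. The rise was 0.17 (SE 0.07, p = 0.0324 by limma, exact permutation p = 0.0571), and without wild-type replicate 2, 3 or 4 or SOD1G93A replicate 1, 2 or 3 p was between 0.0543 and 0.095. The brighter Kcnh1 probe gave 0.08 ± 0.08.

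Of the other named members at 80 days, Kcnh2 gave 0.21 ± 0.13 and Kcnmb4 0.17 ± 0.11. The Kcnd2 probe called at 40 days gave 0.02 ± 0.10 at 80 days and the brighter Kcnd2 probe -0.18 ± 0.15. Among Kv1 and beta subunits, Kcna1 gave -0.07 ± 0.10, Kcna2 -0.04 ± 0.07, Kcnab1 -0.14 ± 0.10 and Kcnab2 -0.06 ± 0.09. Kcnip4 gave -0.10 ± 0.06, Kcnn2 -0.02 ± 0.09 and Kcnt1 -0.04 ± 0.09. Kcnj10 gave -0.06 ± 0.10, Kcnj16 0.00 ± 0.06, Kcnj3 -0.01 ± 0.08 and Kcnk1 -0.11 ± 0.10. The widest change was that of a second Kcnt1 probe, -0.48 ± 0.28, which read 0.41 on SOD1G93A replicate 4 and 1.52 to 1.93 on the other SOD1G93A arrays. Partner probes passed in 0 of 22 cases, with a median of 0.01.

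**Figure D2:**
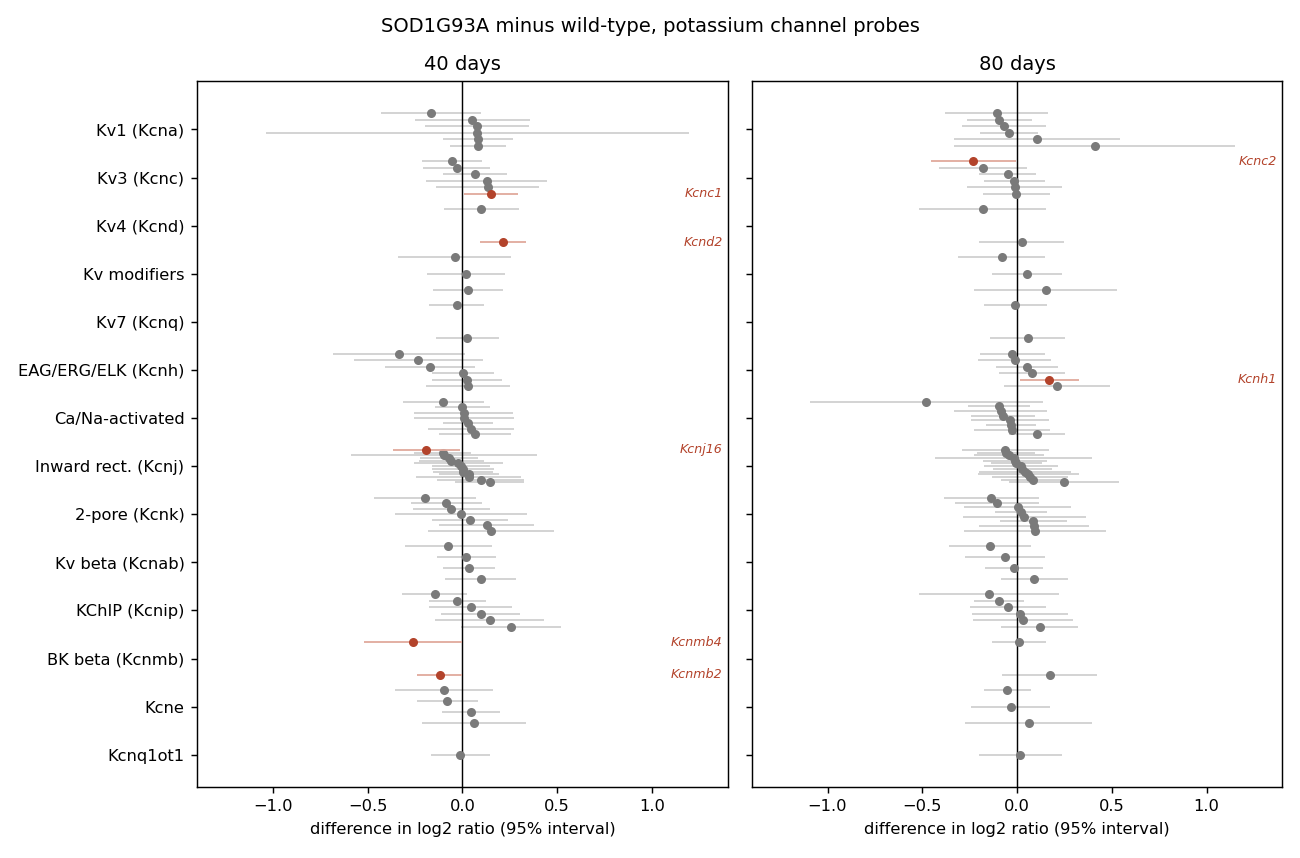
Difference in log2 ratio between SOD1G93A and wild-type (x axis, with 95% interval) for tested potassium channel probes by subfamily (y axis), at 40 days on the left and 80 days on the right, with probes at an unadjusted p under 0.05 in red. At 40 days 5 probes are red, and at 80 days 2.

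Whether the genotype difference itself changed between the ages was tested on all 16 arrays. Kcnmb4 was the only member to pass, 1 of 74 (1.35%) against 6.68% of all 21953 probes. It lay among the higher 3.11% and no member among the lower 3.57%, and after adjustment 0% of probes passed. The Kcnmb4 difference went from -0.26 at 40 days to 0.17 at 80 days, a shift of 0.43 (SE 0.17, p = 0.023 by limma, adjusted p = 0.711, exact permutation p = 0.0371). At 80 days the wild-type arrays read 2.15, 1.83, 1.93 and 1.66 and the SOD1G93A arrays 2.27, 1.99, 1.88 and 2.12, still overlapping. The shift was upward on all 4 slides. Without SOD1G93A 40 days replicate 2, wild-type 80 days replicate 4 or SOD1G93A 80 days replicate 1, it was 0.37, 0.36 and 0.37, with p between 0.0533 and 0.0551. On Cy3 alone it was 0.32 and in the series matrix 0.30, and neither passed.

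The Kv3 and Kcnh subfamilies each lay wholly on one side of 0 in this comparison, with no member called. This was not particular to them. Both Kv4 probes also lay below 0 (median -0.24), and both BK beta probes, Kcnmb4 among them, above it (median 0.28). All 7 Kv3 probes were below 0, with a median of -0.17, and all 6 Kcnh probes were above 0, with a median of 0.17, against a median of 0.00 over all probes. Probes of 1 gene share a transcript, as the Kcnc1 and Kcnc2 probes do. The lowest p among Kv3 was that of the printed Kcnc1 probe at -0.17 ± 0.09, and in Kcnh that of Kcnh8 at 0.31 ± 0.19. Neuron markers were below 0 on 14 of 16 probes, with a median of -0.12 and 2 called, and astrocyte markers on 9 of 11, with a median of -0.19 and 4 called. Their part in the subfamily values was not tested. Other named members gave -0.15 ± 0.14 for Kcna1, -0.13 ± 0.09 for Kcna2 and -0.20 ± 0.13 for Kcnc2. Kcnd2 gave -0.28 ± 0.19 on its brightest probe and -0.19 ± 0.12 on the other. Kcnip4 gave -0.14 ± 0.12, Kcnab1 -0.07 ± 0.15, Kcnab2 -0.16 ± 0.13 and Kcnh2 0.18 ± 0.17. For Kcnn2 it was -0.03 ± 0.16, for Kcnt1 -0.11 ± 0.13, for Kcnj3 -0.02 ± 0.10, for Kcnj10 -0.21 ± 0.14, for Kcnj16 0.10 ± 0.09 and for Kcnk1 -0.02 ± 0.14. The widest shift of any member was that of the second Kcnt1 probe, -0.525 ± 0.32, with 1 low SOD1G93A array as given above. It did not pass. Across the 71 members tested at both ages, 29 (40.8%) had the same sign of genotype difference at either age, against 49.5% of all probes, and Pearson's r across these probes was -0.08, against 0.02 over all probes. These probes share the same 16 arrays and 4 slides and are not independent.

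Between 40 and 80 days, wild-type cord changed in 7 of 73 member probes (9.59%), against 15.3% of all 21526 probes. Kcnj9 and both probes of Kcnt2 rose (3 higher, 6.88% of all probes; the Kcnt2 probes passed the filter on dim signals only through the 80-day arrays, where they were higher), and Kcnj16, Kcne1l, Kcnj8 and Kcnh8 fell (4 lower, 8.4%). After adjustment 1.63% of all probes passed and no member did. The groups stood apart for 6 of 72 members (8.33%), against 7.77% of all probes, and the median member change was 0.02 with 38 above and 35 below 0, against 0.01 over all probes with 11879 above and 9647 below. With slide as a block 11 members were called (15.1%), against 15.8% of all probes in the same fit.

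Kcne1l (now Kcne5), a single-pass subunit of Kv channels, had the largest fall with age in wild-type. It read 2.34, 2.39, 2.37 and 2.75 at 40 days and 2.06, 2.15, 2.15 and 1.95 at 80 days, with no overlap. It fell by 0.38 (SE 0.15, p = 0.0188 by limma, exact permutation p = 0.0286). Without wild-type 40 days replicate 4 or wild-type 80 days replicate 4 the change was -0.28 and -0.34, with p between 0.052 and 0.0729, and without the reset of backgrounds it was -0.25 and did not pass. In SOD1G93A, Kcne1l gave -0.22 ± 0.15 with age and did not pass. The difference between the genotypes in this change was 0.16 ± 0.21, which did not pass.

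Kcnj9 rose with age in both genotypes. In wild-type it read 2.98, 2.87, 2.72 and 2.93 at 40 days and 3.22, 3.13, 2.99 and 2.98 at 80 days, just apart. In SOD1G93A the values were 2.94, 2.98, 2.76 and 2.82, then 3.19, 3.25, 3.00 and 2.96, with a narrow overlap. The changes were 0.20 (SE 0.08, p = 0.024 by limma, exact permutation p = 0.0286) and 0.22 (SE 0.08, p = 0.0155, exact permutation p = 0.0571), upward on all 4 slides in either genotype. The second, dimmer Kcnj9 probe went the other way in both, by -0.28 ± 0.17 and -0.33 ± 0.17. Leaving out wild-type 40 days replicate 3 or wild-type 80 days replicate 1 or 2 gave p between 0.0581 and 0.0894 in wild-type, and leaving out SOD1G93A 40 days replicate 3 or SOD1G93A 80 days replicate 2 gave 0.0543 and 0.0616 in SOD1G93A. The SOD1G93A rise did not pass with the processed signals (0.06) and the wild-type rise with median centering (0.09).

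The called Kcnj16 probe fell with age in wild-type by 0.22 (SE 0.08, p = 0.0186 by limma, exact permutation p = 0.0286). Its wild-type values of 80 days were 0.56, 0.72, 0.57 and 0.73, all below those of 40 days. In SOD1G93A, lower at 40 days with overlap, it read 0.72, 0.52, 0.72 and 0.45 at 80 days, a change of -0.07 ± 0.08. The difference between the genotypes in this change was 0.15 ± 0.12 on this probe and did not pass. The genotype comparison at 40 days and the age comparison in wild-type share the wild-type arrays of 40 days. The brightest Kcnj16 probe gave -0.11 ± 0.06 in wild-type. Leaving out wild-type 40 days replicate 4 or wild-type 80 days replicate 1 or 3 gave p between 0.0517 and 0.0765.

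Kcnj8, the vascular ATP-sensitive pore, read -2.00, -1.91, -1.68 and -2.24 at 40 days and -2.26, -2.52, -2.00 and -2.23 at 80 days in wild-type, overlapping. It fell by 0.29 (SE 0.12, p = 0.0266 by limma, exact permutation p = 0.114), with p between 0.0565 and 0.111 when wild-type 40 days replicate 2 or 3 or wild-type 80 days replicate 2 was left out. The smallest of these changes was -0.20, and the dimmer Kcnj8 probe gave -0.10 ± 0.07. In SOD1G93A the called probe changed by -0.21 ± 0.12 (p = 0.0981 by limma, exact permutation p = 0.0571), lower on all 4 slides. The difference between the genotypes in this change was 0.08 ± 0.17 and did not pass, so the fall was not particular to wild-type. Vessel markers lay below 0 with age on 8 of 8 probes in wild-type, 4 of them called. Summed over the brightest probe of 6 genes, Cy3 signals were 12.52 to 12.78 at 40 days and 12.25 to 12.61 at 80 days. The part of the vessel markers in the Kcnj8 value was not tested.

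Kcnt2 (Slick, a sodium-activated pore) rose by 0.17 on either probe (SE 0.07 for both, exact permutation p = 0.0571 on the brighter and 0.0286 on the dimmer), both near background at 40 days. They were well above background on 2 and 1 of the 4 wild-type arrays at 40 days and on 4 and 3 at 80 days, so that a rise was favored by the filter itself and their tests lend no support. The brighter read 0.50, 0.32, 0.31 and 0.32, then 0.72, 0.41, 0.50 and 0.50, overlapping through replicate 1 of 40 days. The dimmer read -0.05, 0.12, 0.17 and 0.06, then 0.41, 0.19, 0.21 and 0.18, with no overlap. Without wild-type 80 days replicate 1 the changes were 0.11 and 0.12, and neither passed. Nor did the brighter without wild-type 40 days replicate 3, at 0.15, or the dimmer without wild-type 40 days replicate 1, at 0.13. In SOD1G93A the brighter Kcnt2 probe gave 0.07 ± 0.07 and did not pass. Kcnh8 read 0.55, 0.94, 0.46 and 1.22 in wild-type at 40 days and 0.65, 0.49, 0.39 and 0.46 at 80 days. It fell by 0.29 (SE 0.13, p = 0.0394 by limma, exact permutation p = 0.2), with replicates 2 and 4 of 40 days above all other arrays. Its direction turned, without passing, under median centering (0.29) and with the processed signals (1.02). Without wild-type 40 days replicate 4 it was -0.15 and did not pass, and without wild-type 40 days replicate 2 or wild-type 80 days replicate 2, 3 or 4 p was between 0.0652 and 0.106. In SOD1G93A, Kcnh8 gave 0.02 ± 0.13.

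In SOD1G93A cord, 4 of 72 member probes (5.56%) changed with age, against 17.2% of all 21507 probes. Kcnh2, Kcnmb4 and Kcnj9 rose (8.77% of all probes were higher) and Kcna2 fell (8.43% were lower). After adjustment 1.18% of all probes passed and no member did. Kcnh2 alone had groups that stood apart, 1 of 72 (1.39%) against 12.6% of all probes. The median member change was 0.00, with 35 above and 37 below 0, against 0.01 over all probes with 11181 above and 10326 below.

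Kcnh2 (ERG1, a pore that slows repetitive firing) had the lowest p of any member with age. Its SOD1G93A arrays read 0.65, 0.64, 0.54 and 0.59 at 40 days and 0.85, 1.08, 1.26 and 0.71 at 80 days. All 80-day values were higher, and more widely spread than those of 40 days. The rise was 0.37 (SE 0.12, 1.29-fold, p = 0.00757 by limma, adjusted p = 0.141, exact permutation p = 0.0286). It kept its direction and an unadjusted p under 0.05 in 27 of 28 alternatives, the exception being the adjusted p itself. In wild-type the values were 0.71, 0.33, 0.45 and 0.81, then 1.02, 0.71, 0.68 and 0.65, a change of 0.19 ± 0.12, and the difference between the genotypes in this change was the 0.18 given above, which did not pass.

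Kcnmb4 rose with age in SOD1G93A by 0.35 (SE 0.12, p = 0.0112 by limma, exact permutation p = 0.0857), from the low values at 40 days given above, whereas wild-type gave -0.08 ± 0.12. This rise and the interaction share the same arrays. Kcna2, the axonal Kv1 pore, read 0.99, 0.86, 0.91 and 0.93 at 40 days and 0.78, 0.83, 0.65 and 0.86 at 80 days in SOD1G93A, with replicate 2 of 40 days and replicate 4 of 80 days nearly equal. It fell by 0.14 (SE 0.07, p = 0.0435 by limma, exact permutation p = 0.0571). Without SOD1G93A 40 days replicate 1, 3 or 4 or SOD1G93A 80 days replicate 1 or 3, p was between 0.0642 and 0.155, and without the reset of backgrounds the change was -0.03. Oligodendrocyte markers were below 0 with age on 11 of 12 probes in SOD1G93A, 6 called lower and 1 higher. Summed over the brightest probe of 6 genes, Cy3 signals were 18.27 to 18.39 (log2) at 40 days and 17.93 to 18.11 at 80 days. The part of the oligodendrocyte markers in the Kcna2 value was not tested.

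The other named members did not pass with age in either genotype. In wild-type and then SOD1G93A, Kcna1 gave -0.02 ± 0.10 and -0.17 ± 0.10, and Kcnd2 0.20 ± 0.13 and -0.08 ± 0.13 on its brightest probe and 0.13 ± 0.08 and -0.06 ± 0.08 on the other. Kcnc1 gave 0.11 ± 0.07 and -0.05 ± 0.07, and Kcnc2 0.08 ± 0.09 and -0.12 ± 0.09. Among auxiliary subunits, Kcnip4 gave 0.13 ± 0.08 and -0.01 ± 0.08, Kcnab1 0.06 ± 0.10 and -0.01 ± 0.10, and Kcnab2 0.08 ± 0.09 and -0.08 ± 0.09. Kcnn2 gave -0.19 ± 0.11 and -0.22 ± 0.11, and Kcnt1 0.15 ± 0.09 and 0.04 ± 0.09. The second Kcnt1 probe gave 0.07 ± 0.23 and -0.45 ± 0.23, the latter the widest change of any member in SOD1G93A. The glial Kcnj10 gave 0.06 ± 0.10 and -0.14 ± 0.10, Kcnj3 0.06 ± 0.07 and 0.04 ± 0.07, and Kcnk1 -0.04 ± 0.10 and -0.06 ± 0.10. All 7 Kv3 probes lay above 0 in wild-type and 6 of 7 below 0 in SOD1G93A. Partner probes passed in 1 of 22 cases in wild-type and 4 of 22 in SOD1G93A, all lower, against 15.3% and 17.2% of all probes in either direction and 8.4% and 8.43% lower.

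**Figure D3:**
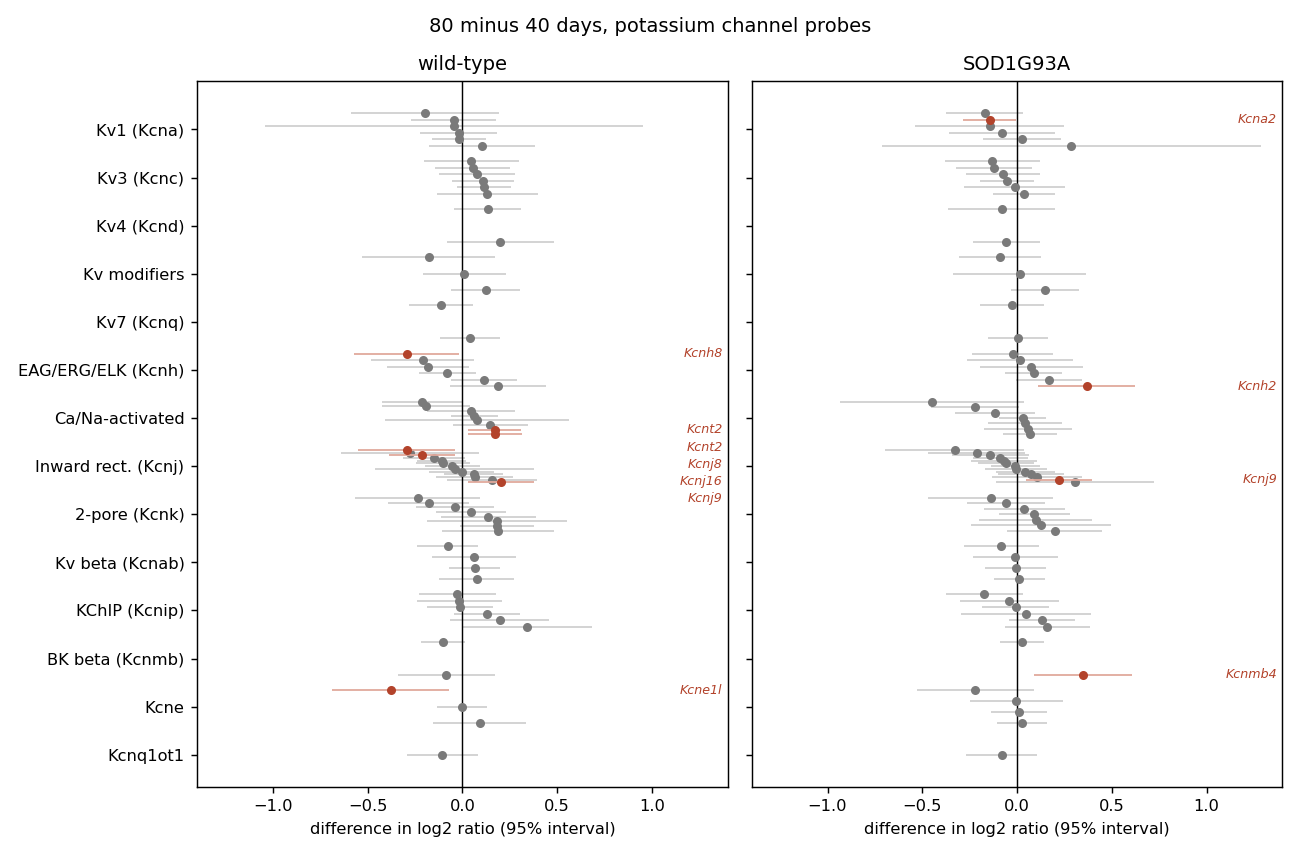
Difference in log2 ratio between 80 and 40 days (x axis, with 95% interval) for tested potassium channel probes by subfamily (y axis), in wild-type on the left and SOD1G93A on the right, with probes at an unadjusted p under 0.05 in red. In wild-type 7 probes are red and in SOD1G93A 4, with Kcnj9 red in both.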

How the data were processed

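Per the labels, lumbar cord RNA (Cy3) was hybridized beside a reference pool (Cy5) on 16 arrays. The deposited spot intensity values come from Agilent Feature Extraction 9.5.3.1, per the submitters' processing notes, and are not normalized. In the series matrix the authors gave normalized log2 values, set to a separate median at each age, which follow Cy3 alone (r = 0.993 to 0.999 with log2 Cy3). Here, local backgrounds over 20 units above their own spot were reset to the array median, and median signals underwent normexp correction (offset 50), loess within arrays and quantile normalization of mean intensity between arrays. Spots of a probe were averaged, without control and outlier spots. Testing required Cy3 well above background on 3 of 4 arrays in 1 compared group, with 2 measured arrays in each.

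Comparisons used limma 3.58.1 (two-sided moderated tests across all probes) in R 4.3.3, on the 8 arrays of an age for genotype and on 16 otherwise. Following the study's methods, a call is an unadjusted p under 0.05, with Benjamini-Hochberg adjustment beside it. Values after ± are SD for ratios and SE for changes. The fits were tested on simulated data. Figures were drawn with matplotlib 3.10.9. The offset shrinks changes of dim probes, and the number of arrays limits precision.

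Named were all called members, most of 23 further genes of known neuronal or glial role (Kcnd3, Kcnq3, Kcnk2 and Kcns1 could not be tested, and the results of a few others are not reported here), and the 10 highest and 5 lowest ratios. A gene is given by its brightest tested probe, with others where one was called. Of 122 member probes, 103 matched RefSeq by accession, none under another symbol. Members and lists were chosen with earlier results of these data known. The file headers show that replicate number is the slide. Same-slide deviations from the group means correlated at -0.06 to 0.21. Alternatives covered background, normalization, Cy3 alone, the series matrix, probe filters, array weights, slide as a block and leaving out each array.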

Additional observations from a re-analysis of the deposited data

Results flagged for a closer look

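Among called members, 8 of 60 groups of 4 held an array whose gap to its nearest neighbor exceeded Dixon's 95% limit. These groups come from probes picked as called and share the same arrays. Their count therefore cannot be set against the nominal 1 in 20, and no excess is claimed. Replicate 4 stood out for Kcne1l in both groups of 40 days, at 2.75 in wild-type (others 2.34 to 2.39) and 2.66 in SOD1G93A (others 2.23 to 2.30). Replicate 1 was the high array for Kcnh2 in wild-type of 80 days (1.02, others 0.65 to 0.71), for Kcnt2 in wild-type of 40 days (0.50, others 0.31 to 0.32) on 1 probe and of 80 days (0.41, others 0.18 to 0.21) on the other, for Kcnh1 in wild-type of 40 days (0.38, others 0.26 to 0.27) and for Kcnh8 in SOD1G93A of 80 days (0.64, others 0.40 to 0.43). Kcnmb2 was high on wild-type 40 days replicate 2 (0.30, others 0.18 to 0.20). The genotype difference of Kcnmb4 moved by 0.43 between the ages, from lower to higher in SOD1G93A, at an unadjusted p of 0.023 by limma and an adjusted p of 0.711.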

How the results depend on the processing

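Counts of called members were 5 at 40 days, 2 at 80 days, 1 for the difference between ages, 7 for age in wild-type and 4 for age in SOD1G93A. After Benjamini-Hochberg adjustment all were 0. In the same order, counts that moved were 1, 1, 4 and 2 without the reset of bright backgrounds (difference between ages not moved), 3 at 40 days and 3 for the difference with an offset of 16, 1 at 80 days and 2 for the difference without background subtraction, and 1 at 80 days, 3 for the difference and 7 for age in SOD1G93A with the processed signals. Median centering gave 2 at 40 days, 2 for the difference and 3 for age in wild-type. Cy3 alone and the series matrix each gave 2, 1 and 0 for the first 3 comparisons. The series matrix was not run for age, since its ages have separate medians. Without a filter on dim probes counts were 4 at 80 days, 3, 12 and 7. With the strict filter, which asks for all arrays compared, the count at 80 days was 1. That filter could test only 15 of the 19 called changes. Left out were Kcnh1 at 80 days, Kcnmb2 at 40 days and both Kcnt2 probes with age in wild-type. With array weights counts were 8, 4 and 2 for the first 3 and 9 for age in SOD1G93A. With slide as a replicate block counts were 3 at 40 days (2 shared with the 5), 3 at 80 days, 1, 11 in wild-type and 4. These were 4.17%, 4.11%, 1.35%, 15.1% and 5.56% of members. The same fits called 4.49%, 7.82%, 6.85%, 15.8% and 17% of all probes. For the other settings the share of all probes called is not given, so their counts cannot be set against the array. The block lost the calls of Kcnc1, Kcnmb4 and Kcnmb2 at 40 days and added Kcnh8 at 40 days (-0.33), the second Kcnc2 probe at 80 days (-0.18) and 4 probes in wild-type, among them Kcnip1, Kcnk13 and a Kcnn2 probe. Leaving out 1 array gave 1 to 8, 0 to 5, 0 to 3, 3 to 14 and 2 to 7. Members over 2-fold above the pool were 36 of 73, and 56 of 73 with the processed signals, which placed 25.9% of all probes there in place of 16.1%.

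Of 19 called changes, 19 held with outlier spots kept, 16 without background subtraction, 16 with array weights and 13 with an offset of 16. Only 8 held without the reset, 8 with Cy3 alone, 7 with median centering and 7 with the processed signals. The series matrix could be run for 8 of the called changes, and 2 of these held. The fall of Kcnh8 with age in wild-type turned to 0.29 with median centering and 1.02 with the processed signals. The cause was not tested. Probes near background, such as Kcnmb2, Kcnt2 and the dimmer Kcnh1, are limited by their signal.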
